A study of Homo sapiens with 8 samples.

Results

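MAGE-A genes are cancer-testis genes on the X chromosome, and 6 of them are described here: MAGEA1, MAGEA3, MAGEA4, MAGEA6, MAGEA10 and MAGEA12. They were chosen by their RNA counts, since earlier results of these libraries, the contrast of PC9R with PC9 among them, were known when the list was made. All 6 are in the count table, out of 24630 genes and unnamed transcripts. The counts of each gene's RefSeq accessions (transcript records) were summed. The lines are human lung adenocarcinoma cells. PC9R was screened out of PC9 by gefitinib, an inhibitor of the EGFR kinase, over 1 to 2 weeks, and PC9 is the EGFR-mutant parent that gefitinib inhibits. Both lines were grown in DMEM and used at passages 8 to 12, and the labels do not say whether PC9R is 1 clone. Each line had 2 RNA-seq libraries, 1 list of DNase hypersensitive sites (DHS, open chromatin) and 1 list of H3K4me2 peaks, a histone mark of promoters and enhancers, from an Abcam antibody. The labels give a gefitinib exposure for PC9R alone, and drug and line therefore cannot be told apart. They also do not say that a line's RNA libraries are separate cultures, and p-values here measure library-to-library spread, which may be technical.

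MAGE-A genes are normally active in male germ cells and silent in other adult tissues, where methylated CpG in their promoters keeps them off. Many tumours, lung cancers among them, express some of the family again, and peptides of the proteins shown on HLA molecules are targets of T cells. The proteins share a MAGE homology domain, through which several bind RING ubiquitin ligases; MAGEA3 and MAGEA6 bind TRIM28 and direct it to substrates such as p53 and the kinase AMPK. ETS factors that bind GGAA-type sites are described as activators of MAGE-A promoters.

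All 6 genes lie within 1.41 Mb of chromosome X (GRCh37). MAGEA4 is at 151080967 to 151093643 on the plus strand, MAGEA10 at 151301782 to 151307050 on the minus strand and MAGEA6 at 151867214 to 151870825 on the plus strand. MAGEA12 (151899293 to 151903206), MAGEA3 (151934652 to 151938240) and MAGEA1 (152481520 to 152486116) are on the minus strand. The start sites (TSS) of MAGEA3 and MAGEA6 are 71 kb apart. The next sequences are the bases upstream of the most upstream annotated TSS, 5′ to 3′ on the gene's strand of GRCh37. The MAGEA3 and MAGEA6 windows are shown whole because they are almost the same, so that reads and peaks there are hard to place, and the others because they share a short run with them. Capitals mark GGATGTGAC, a run found in the 250 bases upstream of all 5 genes shown.
MAGEA3, 250 bases, chrX:151938241-151938490, minus strand: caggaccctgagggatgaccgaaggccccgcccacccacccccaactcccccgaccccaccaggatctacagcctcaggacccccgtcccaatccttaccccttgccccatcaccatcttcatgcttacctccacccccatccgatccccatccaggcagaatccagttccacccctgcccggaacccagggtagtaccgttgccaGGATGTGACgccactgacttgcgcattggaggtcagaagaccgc
MAGEA6, 250 bases, chrX:151866964-151867213, plus strand: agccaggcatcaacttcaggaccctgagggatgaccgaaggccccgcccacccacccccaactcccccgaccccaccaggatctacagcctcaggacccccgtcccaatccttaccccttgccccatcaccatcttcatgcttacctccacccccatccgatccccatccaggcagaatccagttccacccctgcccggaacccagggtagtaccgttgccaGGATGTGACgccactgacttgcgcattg
MAGEA4, 60 bases, chrX:151080907-151080966, plus strand: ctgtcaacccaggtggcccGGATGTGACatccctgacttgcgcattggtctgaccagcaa
MAGEA10, 60 bases, chrX:151307051-151307110, minus strand: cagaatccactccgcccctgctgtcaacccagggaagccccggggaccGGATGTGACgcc
MAGEA12, 21 bases, chrX:151903207-151903227, minus strand: cacggggccGGATGTGACgcc

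The MAGEA3 and MAGEA6 windows share an unbroken run of 234 of 250 bases. Between the full 250-base windows of MAGEA3 and MAGEA12 the longest shared run is 27 bases. GGATGTGAC begins 44, 41, 28, 12 and 12 bases before the TSS of MAGEA3, MAGEA4, MAGEA6, MAGEA10 and MAGEA12, in that order. The run was picked as the longest one common to the MAGE-A genes described here, so its presence in them was fixed by that choice. It occurs on either strand in 60 of 19794 windows of coding genes (0.303%), and 10 of these belong to MAGE-A genes. MAGEA12 is printed only as far as the TSS of CSAG1, a cancer-testis gene that starts 22 bp away in the opposite direction. The rest of the 250-base MAGEA12 window lies downstream of the CSAG1 TSS.

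Over their full 250 bases these windows held 10 CpG in MAGEA3, 7 in MAGEA4, 9 in MAGEA6, 9 in MAGEA10 and 5 in MAGEA12. For MAGEA4, MAGEA10 and MAGEA12 only part of the window is printed above, and the motifs below were also searched over the full windows. The median was 15 over 19794 coding windows and 11 over the 862 on X, so all 5 were below both. They were not at the low end: 23.6% of windows held fewer CpG than MAGEA12 and 37.5% held fewer than MAGEA3, with the others between. The ETS-type motifs CCGGAA and CCGGAT were searched on both strands. CCGGAA occurred once each in MAGEA3, MAGEA6 and MAGEA10, and in 16.3% of all windows. CCGGAT occurred 2 times in MAGEA4 and once each in MAGEA10 and MAGEA12, and in 6.36% of all windows. All 5 windows thus held at least 1 of them, against 20.9% of all windows. The windows are not independent: MAGEA3 and MAGEA6 are almost the same, and in MAGEA4, MAGEA10 and MAGEA12 a CCGGAT overlaps the run in capitals. The comparison therefore tests nothing, and a match of letters is not a binding site.

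PC9 expressed MAGEA3, and PC9R had almost no reads of it. MAGEA3, a gene whose protein was tried as a lung cancer vaccine, had 1 and 1 counts in the PC9R libraries, against 1342 and 641 in the PC9 libraries. These are 0.0285 and 0.0594 CPM (counts scaled to library size, with TMM normalization) in PC9R and 42.1 and 42.8 CPM in PC9. The lines do not overlap, as with PC9R lower in 1887 of 12660 tested genes (14.9%). The PC9 libraries differ from each other by far less than from either PC9R library. The mean level was 0.0440 ± 0.0219 CPM in PC9R and 42.4 ± 0.489 CPM in PC9 (SD, n = 2 each). The level in PC9 over that in PC9R was 1099, with a 95% interval of 304 to 9078 that covers counting error only. The fitted log2 fold change, PC9R over PC9, was -9.89 (SE 0.92), the third most negative of 12660 genes tested. It was -10.53 between the first libraries of the lines and -9.49 between the second. In bulk RNA, fewer cells with the transcript and less transcript per cell cannot be told apart.

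MAGEA1, the first human tumour antigen gene cloned with T cells, had far fewer reads but the same direction. It had 0 and 0 counts in PC9R, against 14 and 10 in PC9, which is 0.439 and 0.667 CPM in PC9. Taking 3 counts over both PC9R libraries as the limit that a count of 0 allows, it was at least 8.86-fold lower in PC9R. MAGEA12 had 0 and 0 counts in PC9R, against 22 and 5 in PC9 (0.690 and 0.334 CPM in PC9), and by the same limit was at least 9.97-fold lower. All counts of MAGEA12 fell on 1 of its 3 accessions, and CSAG4, a CSAG family RNA gene, overlaps it on the same strand. Neither gene's libraries overlap between the lines, as with PC9R lower in 1887 of 12660 tested genes (14.9%), and the counts of both are small. MAGEA12 had too few counts to be among the genes tested. Per kb of the longest annotated transcript, the PC9 level was 20.21 and 20.55 CPM for MAGEA3, 0.257 and 0.390 CPM for MAGEA1, and 0.385 and 0.186 CPM for MAGEA12. On that scale MAGEA3 led MAGEA1 and MAGEA12 in both PC9 libraries, and the order of MAGEA1 and MAGEA12 changed between the libraries. These levels may not be comparable between genes. MAGEA12 has several accessions with counts on only 1, and the counts of MAGEA3 may hold reads of MAGEA6.

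MAGEA4, a family member targeted by engineered T cells, MAGEA6, the near copy of MAGEA3, and MAGEA10, another T-cell antigen gene, had 0 counts in all 4 libraries. These 0 counts cannot be read as silence. MAGEA4 has 4 accessions, MAGEA6 has 2, and MAGEA10 and MAGEA12 have 3 each, and the 8198 of 23375 named genes that have more than 1 accession took just 6.74% to 7.07% of each library's counts. Among genes with any count, the median over the 4 libraries together was 134 counts with more than 1 accession and 816 with 1. Genes with no counts at all were 25.5% of those with more than 1 accession and 28.6% of those with 1. MAGEA3 and MAGEA1 have 1 accession each. In all, 1 of the 6 genes had counts in PC9R and 3 had counts in PC9.

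**Figure D1:**
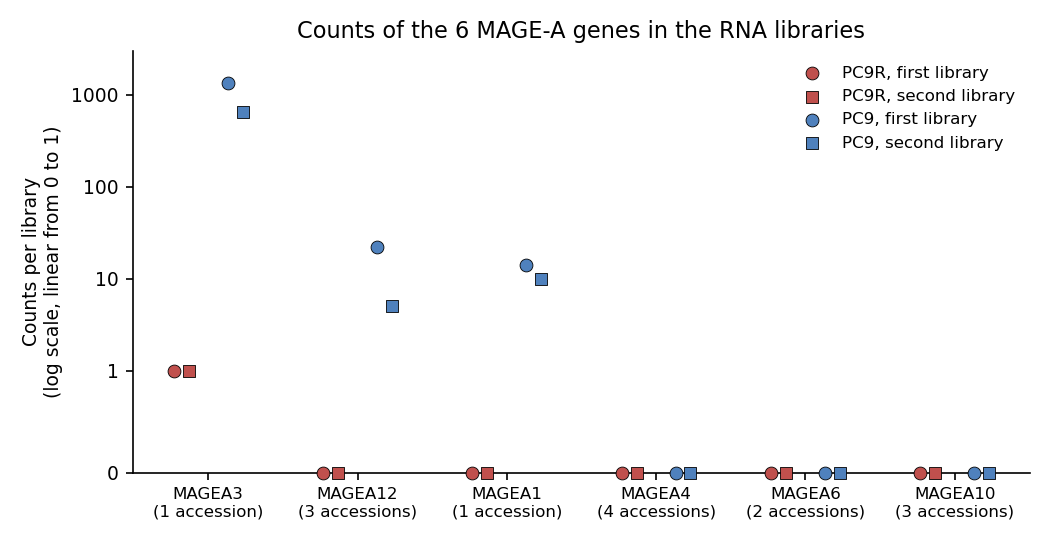
Counts of the 6 MAGE-A genes in each RNA library on an axis that is logarithmic above 1 and linear from 0 to 1, with PC9R in red and PC9 in blue, and circles and squares for the first and second libraries. MAGEA3 stands at 1 and 1 in PC9R and at 1342 and 641 in PC9, MAGEA12 and MAGEA1 have counts only in PC9, and the other three are at 0 in all libraries.

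Summed over the 6 genes, the libraries held 1 and 1 counts in PC9R, against 1378 and 656 in PC9. That is 0.0285 and 0.0594 CPM in PC9R and 43.2 and 43.8 CPM in PC9, and MAGEA3 gave 97.4% and 97.7% of the PC9 counts. The summed level on the log2 scale, PC9R over PC9, was -9.95 over all libraries, -10.57 between the first and -9.52 between the second. The sum is therefore close to a reading of MAGEA3. Of the 6 genes, 2 had enough counts to be tested by edgeR over all genes. MAGEA3 was called lower at an adjusted p under 0.05, as were 8 of 12660 genes (0.0632%), and MAGEA1 was not called. With upper quartile scaling no gene of the 12660 passed, MAGEA3 included (919 at an unadjusted p under 0.05). The first libraries of the lines are deeper than the second and differ from them along GC content, so the fit was also made with library number (first or second) as a further term, which leaves 1 residual degree of freedom. With that term both were called lower, as were 1211 of 12660 genes (9.57%), and groups did not overlap with PC9R lower in 1887 genes (14.9%). As this contrast was in view when the genes were listed, these calls describe them and test nothing.

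How far MAGEA3 reads can be told from those of MAGEA6 depends on sequence. Of the 32-base words in the annotated exons of MAGEA3, 23.3% occur once in GRCh37, and 55.8% also occur in exons of MAGEA6, 9.19% in MAGEA12 and 9.09% in MAGEA2. In the other direction, 68.1% of the words in MAGEA6 exons occur in MAGEA3 exons, and 25.2% occur once in the genome. MAGEA1 and MAGEA10 were mostly unique, at 94.3% and 89.1%, MAGEA12 had 70.3% and MAGEA4 had 65.7%. The treatment of reads that match several places is not stated in the labels. The counts listed for MAGEA3 may therefore hold reads of MAGEA6, and these cannot be told apart; MAGEA1 has almost no sequence in common with it (0.0618% of its exon words).

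**Figure D2:**
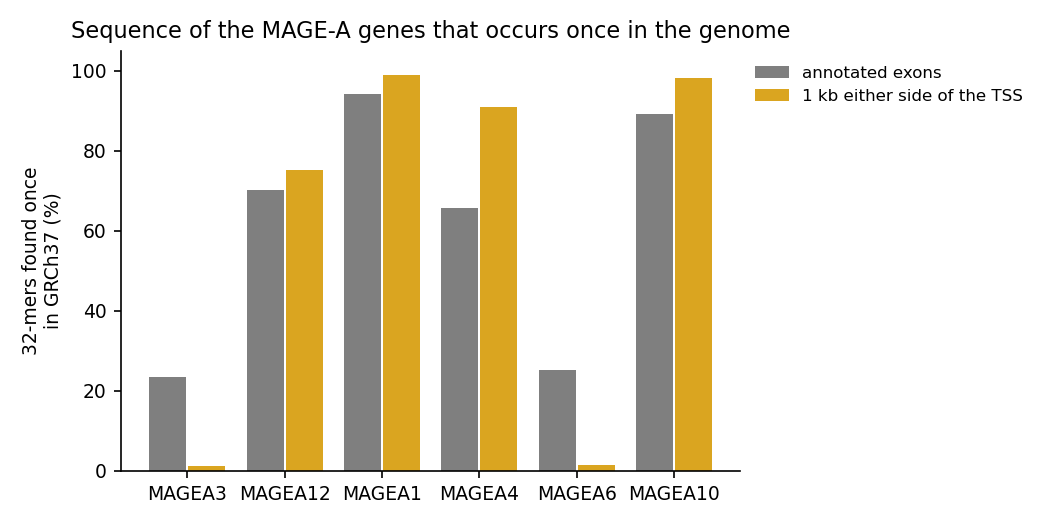
Percentage of 32-base words that occur once in GRCh37, for the annotated exons (grey) and for 1 kb either side of the most upstream TSS (yellow) of each MAGE-A gene. MAGEA3 and MAGEA6 have 23.3% and 25.2% in exons and 1.07% and 1.42% at the TSS, while MAGEA1 has 94.3% and 99%.

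Of the 8 other MAGE-A names listed, 6 are in the count table and none had enough counts to be tested. MAGEA2 had 0 and 0 counts in PC9R against 3 and 1 in PC9, and MAGEA8 had 0 and 0 in PC9R against 4 and 0 in PC9. MAGEA2B, MAGEA9, MAGEA9B and MAGEA11 were at 0 in all 4 libraries. MAGEA2 has 7 accessions, and none of its exon words occurs once in the genome.

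At the TSS the peak lists could be read for some of the genes only. In the 2 kb around the TSS, 1.07% of 32-base words of MAGEA3 and 1.42% of MAGEA6 occur once in the genome, and 97.8% are common to the pair. The share was 99% for MAGEA1, 98.3% for MAGEA10, 91% for MAGEA4 and 75.3% for MAGEA12. A peak missing at MAGEA3 or MAGEA6 therefore says little where reads with several matches were dropped, which was not tested.

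MAGEA12 was the 1 gene of the 6 with H3K4me2 at its TSS, and it had the mark in PC9 only. The PC9R list held no H3K4me2 peak within 1 kb of any TSS of the 6 genes, and its nearest peak to MAGEA12 was 82317 bp away. Of all coding genes 75% had one at the TSS in PC9R and 71.1% in PC9. Of those on X, 54.7% had one in PC9R and 51.6% in PC9. In PC9 a peak at 151901610 to 151902899 lay 202 bp from a MAGEA12 TSS and another at 151903415 to 151903856 lay 209 bp away. The authors' scores of these peaks were 33.7 and 17.2, above 74.9% and 57.6% of the peaks in the PC9 list. The annotated TSSs of MAGEA12, and the most upstream ones of CSAG4 and CSAG1, lie in the gap between the peaks, and the sequence printed above for MAGEA12 lies in that gap too. Over 20136 coding genes, 0.839% had H3K4me2 at the TSS in PC9 only; on X it was 10 of 849 (1.18%). The PC9R list is the longer of the pair, with 117861 peaks against 85246 in PC9. There is 1 library per line and mark, so these differences have no replicate check and no test.

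The other five genes had no H3K4me2 at the TSS in PC9R or PC9, as had 24.1% of all coding genes and 44.2% of those on X. MAGEA1 was far from any peak, at 91740 bp in PC9R and 112940 bp in PC9. MAGEA4 was 8853 bp from the nearest peak in PC9R and 8790 bp in PC9, and within 50 kb it had 4 peaks in PC9R and 6 in PC9. MAGEA10 had 3 peaks within 50 kb in PC9R and 0 in PC9, the nearest at 17467 bp. MAGEA3 had 1 peak within 50 kb in PC9R and 2 in PC9, and MAGEA6 had 0 in PC9R and 2 in PC9. The PC9 peaks counted for MAGEA3 and MAGEA6 are the same pair at MAGEA12, which lies between them.

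No DHS peak lay within 1 kb of a TSS of any of the 6 genes in either line. Of all coding genes, 47.5% had one in PC9R and 35.1% in PC9, while 45.1% had none in either line. On X 32% had one in PC9R and 17.7% in PC9, while 63.6% had none in either line. In PC9R a DHS peak at 151900896 to 151901069 lay inside MAGEA12, 2032 bp from its nearest TSS, with a score above 25.9% of its list. Another PC9R peak at 151305032 to 151305224 lay inside MAGEA10, 1758 bp from a TSS, with a score above 40.6% of its list. MAGEA4 had 2 further DHS peaks within 50 kb in PC9R, the nearer at 9703 bp, and MAGEA1 had none. In PC9 none of the 6 genes had a DHS peak within 50 kb, and the distances ran from 60958 bp for MAGEA3 to 131914 bp for MAGEA6. The PC9R list holds 59600 DHS peaks and the PC9 list 19648, so the larger number in PC9R cannot be told apart from the longer list. Over the whole interval from MAGEA4 to MAGEA1, with 50 kb on either side, both lists held 7.

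**Figure D3:**
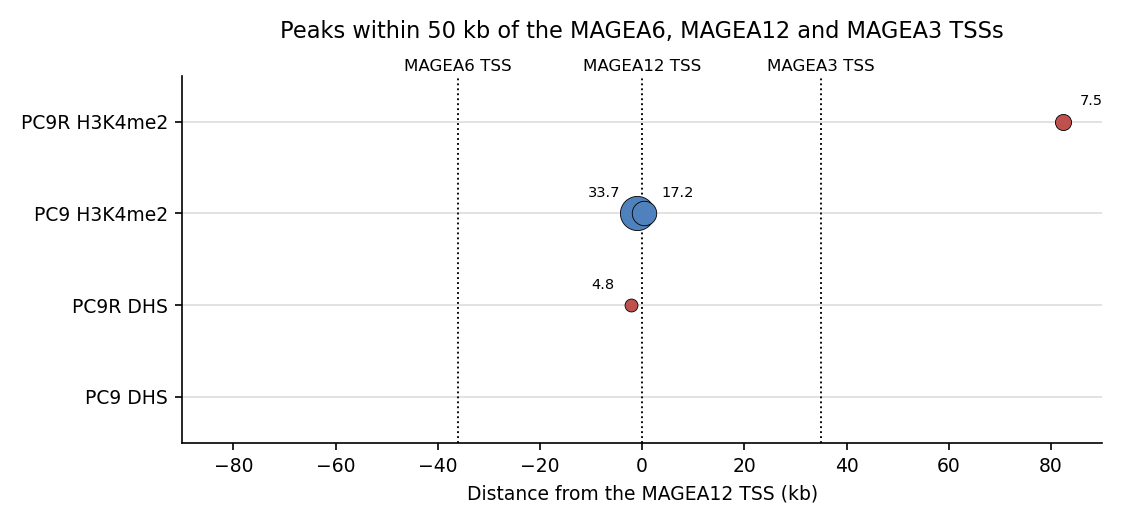
H3K4me2 and DHS peaks within 50 kb of the MAGEA6, MAGEA12 and MAGEA3 TSSs, placed by distance from the MAGEA12 TSS in kb, with PC9R in red, PC9 in blue, circle area rising with the authors' score and the score, which compares only within a list, printed beside each. The PC9 H3K4me2 peaks (33.7 and 17.2) flank the MAGEA12 TSS, while PC9R has its nearest H3K4me2 peak 82317 bp away and 1 DHS peak inside the gene.

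Around the family, 57 other genes with a TSS within 1 Mb of a MAGE-A TSS are in the count table, and 24 of them were tested. In edgeR none was called higher and 1 was called lower (2 at an unadjusted p under 0.05), against 0.19% and 0.0632% of all tested genes. DESeq2 and limma-voom each called the same 2 lower, GABRA3 and CSAG4, and none higher; of all tested genes DESeq2 called 0.948% lower and 2.06% higher, and limma-voom 0.15% lower and 0.427% higher. With library number as a term 1 was called higher and 6 lower, against 11.2% and 9.57%. The median log2 fold change was -0.47 over these 24 genes and -0.01 over all tested genes. GABRA3, which encodes a subunit of the GABA-A receptor and begins 247 kb from MAGEA6, was the 1 gene called by edgeR without that term. It had 0 and 0 counts in PC9R, against 321 and 185 in PC9, and was at least 187-fold lower in PC9R (edgeR adjusted p = 0.0362, and 0.0563 with upper quartile scaling). Its TSS had an H3K4me2 peak in PC9R and none in PC9, the opposite of what MAGEA12 showed. A peak in PC9R only was found at 4.82% of all coding genes and 4.24% of those on X. The PC9R list is the longer one, and with 1 library per line this difference was not tested.

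CSAG4, whose TSS is 70 bp from that of MAGEA12, had 0 and 0 counts in PC9R, against 46 and 12 in PC9. Its edgeR adjusted p was 0.0950, and 0.00377 with library number as a term. CSAG4 and MAGEA12 overlap on the same strand, so the 2 sets of counts may not be separate measurements. CCNQ, the cyclin partner of CDK10, had 12 and 15 counts in PC9R and 32 and 46 in PC9. With library number as a term CCNQ fell by 1.67 on the log2 scale (edgeR adjusted p = 0.0247). Without that term it was -1.74, and with 1 library left out it ran from -2.56 without the second PC9R library to -0.76 without the second PC9 library, with -2.36 without the first PC9 library. VMA21 is an assembly factor of the vacuolar proton pump, ZNF275 a zinc finger gene and BCAP31 a chaperone of the endoplasmic reticulum. With library number as a term they fell by 0.89, 0.79 and 0.77 (edgeR adjusted p = 0.0162, 0.0302 and 0.0495). Without that term, leaving 1 library out gave -1.32 to -0.40 for VMA21, -0.86 to -0.73 for ZNF275 and -1.28 to -0.32 for BCAP31. BCAP31 has 4 accessions and CCNQ has 2, so only part of their reads may have been counted. DUSP9, a phosphatase that acts on ERK kinases, had 1068 and 275 counts in PC9R and 537 and 70 in PC9. With library number as a term it rose by 1.28 (edgeR adjusted p = 0.0172). Without that term it was 1.12, with 2.31 when the first and 0.44 when the second PC9 library was left out.

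Other expressed neighbours had values close to 0 next to those of MAGEA3. The log2 fold change was -0.08 (SE 0.56) for CETN2, a centrosome gene 61.1 kb from MAGEA3, and -0.61 (SE 0.61) for HCFC1, a transcriptional coregulator. It was -0.44 (SE 0.61) for HMGB3, a chromatin protein gene. None of the 3 passed in either fit. CETN2 had 147 and 242 CPM in PC9R and 158 and 254 CPM in PC9, so the libraries of the lines overlap there.

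**Figure D4:**
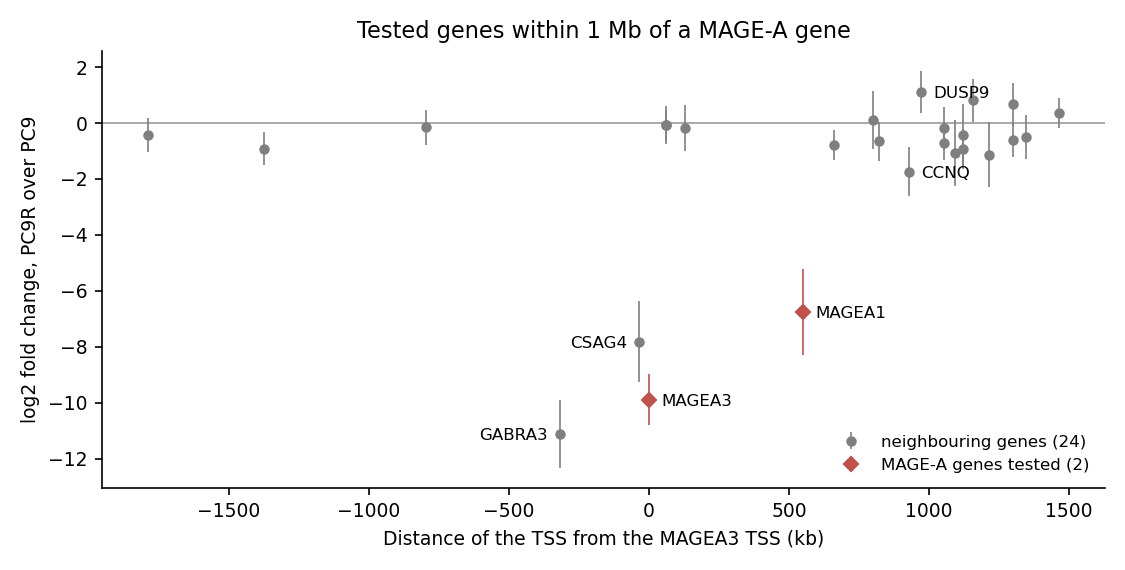
Log2 fold change in RNA, PC9R over PC9, with the edgeR standard error as a bar, for the 24 tested neighbours (grey) and the 2 tested MAGE-A genes (red), against the distance of the TSS from that of MAGEA3 in kb. MAGEA3, MAGEA1, GABRA3 and CSAG4 lie below -6, and the other neighbours lie between -1.74 for CCNQ and 1.12 for DUSP9.

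Genes of related families gave few reads in either line. Of the 14 MAGE-B and MAGE-C names 13 are in the table, 4 had counts, and none could be tested; the list summed to 1 and 0 counts in PC9R and 5 and 3 in PC9. Of 52 other X-linked cancer-testis names 49 are in the table and 9 had counts, with sums of 11 and 25 in PC9R and 28 and 9 in PC9. CSAG1, which shares the MAGEA12 start region, had 0 and 0 counts in PC9R against 18 and 0 in PC9, so its counts rest on 1 library. IL13RA2, a decoy receptor for interleukin 13, went the other way, with 7 and 25 counts in PC9R and 0 and 3 in PC9; it and CSAG1 were named after their values were seen.

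The type II MAGE genes are expressed in many normal tissues. Of the 11 present, 6 had no counts in any library, and the other 5 were tested, with a median log2 fold change of 0.65. None passed in edgeR without library number (0 at an unadjusted p under 0.05), DESeq2 or limma-voom, and with library number 2 passed higher and 0 lower, against 11.2% and 9.57% of all tested genes. NSMCE3, a subunit of the SMC5/6 complex, had 982 and 442 counts in PC9R and 470 and 179 in PC9, and rose by 1.03 (SE 0.23, edgeR adjusted p = 0.0162 with library number). MAGED2, known for its part in renal salt reabsorption, had 225 and 141 counts in PC9R and 70 and 71 in PC9. It rose by 1.19 (SE 0.30, edgeR adjusted p = 0.0279 with library number). Without library number it was 1.10. Leaving 1 library out of that fit gave 0.63 (first PC9 library) to 1.73 (second PC9 library). MAGED2 has 3 accessions, so only part of its reads may have been counted. MAGEF1 had 208 and 182 CPM in PC9R and 187 and 172 CPM in PC9, and MAGEE1 had 22.9 and 17.4 CPM in PC9R and 21.9 and 16.2 CPM in PC9; neither passed.

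Among autosomal cancer-testis and germ cell genes, ACTL8 was lower and SYCP2 higher in PC9R. Of the 36 present, 18 had counts and 7 were tested, with a median log2 fold change of -0.12. None passed in edgeR without library number (2 at an unadjusted p under 0.05) or in limma-voom; with library number, and in DESeq2, ACTL8 passed lower and SYCP2 higher. Of all tested genes 9.57% passed lower and 11.2% higher with library number, and 0.948% lower and 2.06% higher in DESeq2. ACTL8, an actin-like gene, had 1 and 2 counts in PC9R and 83 and 46 in PC9. Its level in PC9 over that in PC9R was 47.6 (95% interval 15.9 to 234, counting error only), with an edgeR adjusted p of 0.0772, and of 8.2e-04 with library number. The log2 fold change of ACTL8 without library number was -5.38, with -4.50 when the first and -6.44 when the second PC9R library was left out. SYCP2, a component of the synaptonemal complex of meiosis, had 235 and 100 counts in PC9R and 21 and 11 in PC9, and rose by 3.20 (SE 0.35, edgeR adjusted p = 7.9e-04 with library number, 0.121 without). The RNA-binding protein gene IGF2BP3 and the sperm protein gene SPA17 did not pass, at -0.53 (SE 0.63) and -0.12 (SE 0.62).

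Germ cell markers were at or near 0 in both lines. DAZL, DDX4, SYCP1, SYCP3 and PIWIL1 were at 0 in all 4 libraries, but each has more than 1 accession. DMRT1, the 1 marker of the 7 with a single accession, had 2 and 1 counts in PC9R and 1 and 3 in PC9. Epithelial keratins were abundant, as in KRT7, which had 320064 and 90350 counts in PC9R and 388768 and 79244 in PC9. Of the lung markers, NAPSA, with 1 accession, had 71 and 12 counts in PC9R and 29 and 6 in PC9. SFTPB, NKX2-1 and SFTPC, which have more than 1 accession, were lower. SFTPB had 9 and 1 counts in PC9R and 1 and 0 in PC9, and NKX2-1 and SFTPC had at most 1 count in a library. Keratins with more than 1 accession were still abundant. KRT18, with 2, had 23942 and 12662 counts in PC9R and 50130 and 10226 in PC9. KRT8, with 4, had 5175 and 740 in PC9R and 9679 and 548 in PC9. Leukocyte markers summed to 618 and 230 counts in PC9R and 279 and 130 in PC9, nearly all from CD68, and PTPRC had 0 and 0 in PC9R and 1 and 1 in PC9. Fibroblast markers summed to 2290 and 239 in PC9R and 779 and 95 in PC9, nearly all from COL1A1, with COL3A1 at 0 and 1 in PC9R and 2 and 0 in PC9. Endothelial markers summed to 1644 and 338 in PC9R and 715 and 190 in PC9, led by CDH5, with KDR at 1 and 1 in PC9R and 0 and 0 in PC9. The part of these markers in the MAGE-A values was not tested.

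Genes listed for DNA methylation and gene silencing, which include the kind of machinery that keeps MAGE-A promoters off in normal cells, had counts in both lines. All 26 in the table had counts and 23 were tested, with a median log2 fold change of 0.01. None passed in edgeR without library number (0 at an unadjusted p under 0.05), DESeq2 or limma-voom, and with library number 1 passed higher and 2 lower, against 11.2% and 9.57% of all tested genes. DNMT3A, which places new methyl groups on CpG, had 78 and 29 counts in PC9R and 163 and 62 in PC9, and fell by 1.23 (SE 0.30, edgeR adjusted p = 0.0251 with library number). TET2, which oxidises methylated cytosine, had 763 and 488 counts in PC9R and 304 and 234 in PC9, and rose by 1.04 (SE 0.23, edgeR adjusted p = 0.0165 with library number). HDAC1, a histone deacetylase, had 394 and 581 CPM in PC9R and 688 and 913 CPM in PC9, and fell by 0.73 (SE 0.18, edgeR adjusted p = 0.0227 with library number). DNMT3A has 4 accessions and TET2 has 2, so only part of their reads may have been counted. HDAC3, another deacetylase, and MBD2, which binds methylated DNA and also has 2 accessions, did not pass, at -0.47 (SE 0.50) and -0.06 (SE 0.58).

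Partners and substrates of MAGE-A proteins were expressed in both lines. All 17 had counts and 13 were tested, with a median log2 fold change of -0.21; with library number 1 passed higher and 1 lower, against 11.2% and 9.57% of all tested genes. Without it none passed in edgeR (0 at an unadjusted p under 0.05), DESeq2 or limma-voom. TRIM28, the ligase that MAGEA3 and MAGEA6 bind, had 2072 and 1432 CPM in PC9R and 2854 and 1451 CPM in PC9, and did not pass (log2 fold change -0.30, SE 0.51). HUWE1, a large ubiquitin ligase described as a partner of MAGEA11, had 1403 and 1221 CPM in PC9R and 923 and 698 CPM in PC9, and rose by 0.71 (SE 0.17, edgeR adjusted p = 0.0243 with library number). SNW1, a transcription and splicing cofactor that MAGEA1 binds, had 8127 and 7216 counts in PC9R and 12821 and 9914 in PC9. It fell by 0.71 (SE 0.18, edgeR adjusted p = 0.0264 with library number). Without library number the log2 fold change of SNW1 was -0.69, and leaving 1 library out of that fit gave -1.22 to -0.30. The ubiquitin-conjugating enzyme gene UBE2N did not pass, at -0.43 (SE 0.67).

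Transcription factors listed as possible activators of these promoters had 15 members in the table, of which 11 were tested, with a median log2 fold change of -0.05. Again none passed in edgeR without library number (0 at an unadjusted p under 0.05), DESeq2 or limma-voom, and with library number 1 passed higher and 1 lower, against 11.2% and 9.57% of all tested genes. ELF3, an epithelial ETS factor, had 110 and 30 counts in PC9R and 36 and 8 in PC9. It rose by 1.56 (SE 0.37, edgeR adjusted p = 0.0220 with library number). Without library number it was 1.54. Leaving 1 library out of that fit gave 1.07 (first PC9R library) to 2.19 (first PC9 library). ELF3 has 2 accessions, so only part of its reads may have been counted. YBX1, a Y-box DNA- and RNA-binding protein gene, had 441 and 740 CPM in PC9R and 1071 and 1224 CPM in PC9, and fell by 1.00 (SE 0.20, edgeR adjusted p = 0.0110 with library number). MYC and the ETS gene ETV5 did not pass, at -0.06 (SE 0.50) and -0.20 (SE 0.52).

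The genes most like MAGEA3 over the 4 libraries were found by the Euclidean distance of centred log2(CPM + 0.5) values, and their values are given as a description, since they were chosen for this pattern. The nearest 5 of the tested genes were NR2F1 at 1.53, TNC at 1.53, EREG at 1.57, TPM2 at 1.71 and GABRA3 at 1.77. NR2F1, a nuclear receptor gene, had 0.883 and 1.49 CPM in PC9R and 66.3 and 37.6 CPM in PC9. TNC, an extracellular matrix gene, had 0.171 and 0.476 CPM in PC9R and 137 and 215 CPM in PC9. EREG, which encodes a ligand of EGFR, had 0.883 and 3.45 CPM in PC9R and 69.6 and 189 CPM in PC9. All 5 were low in both PC9R libraries and higher in both PC9 libraries, and of the 5 GABRA3 is the one on X.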

How the data were processed

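PC9R and PC9 cells gave 4 RNA libraries, 2 per line, and 4 peak lists, 1 per mark and line, grouped by title. The submitters' processing notes name MACS2, TopHat, HTSeq, DESeq and the build hg19 (GRCh37), without roles or versions. The authors deposited whole-number counts per RefSeq accession and peak lists with a score per peak, whose scale is not stated; no label states the counting mode or peak control. Total counts were 32502455 and 16715426 in PC9R and 32515891 and 16013058 in PC9. The first and second libraries thus differ in depth, and also along GC content, so values are also given within each number and with library number as a term.

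The 42811 accessions were added up by gene; symbols, and nothing else, came from RefSeq's table for GRCh38.p14 (41556 matched, 1255 kept under their own names). A two-sided quasi-likelihood F test in edgeR 4.0.16 (R 4.3.3) was run on the 12660 genes kept by filterByExpr, after TMM normalization, and Benjamini-Hochberg adjusted p-values under 0.05 passed; 32 passed, 24 higher and 8 lower in PC9R. Log2 fold changes are PC9R over PC9, and their SE comes from the F statistic. For a gene at 0 in a line, 3 counts over that line give a bound. Intervals and bounds cover counting error only. TSS and exons came from GENCODE 44 lifted to GRCh37; a peak counts as at the TSS if it overlaps 1 kb on either side of any TSS by at least 1 bp. Promoter sequences were read from GRCh37.

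The genes and the other 8 lists were chosen with earlier results of these data known. Named genes are the 6 MAGE-A genes, up to 4 passing and 2 other members of each list, all passing and up to 4 other neighbours, and the nearest 5 in pattern. One gene and one promoter sequence that these choices select are not reported here. Alternatives were RLE and upper quartile scaling, total-count scaling, no filter, DESeq2 1.42.0, limma-voom in limma 3.58.1, library number, accessions kept apart, leaving out each RNA library or MAGEA3, and other TSS windows and peak subsets. The scripts were tested on simulated data.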

Additional observations from a re-analysis of the deposited data

How the results depend on the processing

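MAGEA3 and the summed level kept their direction in all alternatives run. Without MAGEA3 the summed level was -4.21, a bound because PC9R then has no counts. It was -10.05 as the mean within library numbers, and -10.58 to -9.52 with each RNA library left out. The number of genes passing was 32; it was 0 with upper quartile scaling (919 at an unadjusted p under 0.05, smallest adjusted p 0.0536), where MAGEA3, GABRA3, NR2F1, TNC and TPM2 no longer passed. It was 440 with no filter, 381 with DESeq2, 73 with limma-voom and 2631 with library number as a replicate block, and 83 to 254 with 1 library left out (126 without the first and 254 without the second PC9R library, 83 without the first and 102 without the second PC9 library). The numbers are not in the labels as a pairing: the change between second and first library correlated at 0.82 between the lines over genes, and the block took the biological coefficient of variation to 0.18, against 0.498 without it. With a 2 kb window 1 gene, MAGEA10, had a DHS peak at the TSS in PC9R, against 0. Over 38 named genes and 10 alternatives 17 log2 fold changes turned sign, all of genes that did not pass, and the cause was not tested. With each RNA library left out in turn they ranged from -0.50 to 0.28 for CETN2, -1.19 to 0.038 for HCFC1, -1.22 to 0.066 for HMGB3, -1.04 to 0.23 for IGF2BP3, -0.15 to 0.31 for MAGEE1, -0.49 to 0.52 for MBD2, -0.30 to 0.18 for MYC, -0.64 to 0.25 for SPA17, -0.73 to 0.26 for TRIM28 and -1.38 to 0.22 for UBE2N. With limma-voom MBD2 was at 0.0021. The 0 counts of MAGEA4, MAGEA6 and MAGEA10 cannot be read as silence. Each has more than 1 accession, and 68.1% of the exon words of MAGEA6 occur in MAGEA3. Whether either accounts for the 0 counts was not tested.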
